A study of Mus musculus with 3 samples.

Results

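Type I interferon-induced genes were followed across the cell classes of 4T1 tumours. The module held 38 genes, chosen by symbol from a fixed list of textbook interferon targets, and every one had a row of its own among the 55357 gene rows of both count matrices. Of all gene rows, 28779 had at least 1 UMI (a unique molecular identifier, which counts 1 captured transcript). Measured levels played no part in the choice of members, although the list had been drawn up with earlier results of these data known.

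Type I interferons, the interferon alphas and interferon beta, are secreted when a cell senses foreign or misplaced nucleic acid. They bind the IFNAR receptor, whose kinases JAK1 and TYK2 start the assembly of ISGF3, a complex that contains STAT2 and IRF9 and binds the interferon-stimulated response element (ISRE) in the promoters of target genes. Most targets restrict viruses, several sense nucleic acid, and some feed the response or brake it. In tumours the response is best known from dendritic cells and macrophages, and neutrophils carry the receptor too.

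The tumours came from 4T1, a mouse mammary carcinoma line, as 4T1-sgCPT1A, whose genotype is labelled as a CPT1A knockdown although the line is named for a guide, and as 4T1-sgVC, labelled wild type. All mice were females 8 to 10 weeks old, housed for 8 days as tumour bearers. The labels give neither the host strain nor the number of clones behind each line. Whole tumours were dissociated with papain and DNase, without a described sort, and profiled by 10x Genomics 3′ single-cell sequencing. Each group had 1 library. Of 3 samples listed, 2 had files; whether reads of the other, a second sgCPT1A sample, entered the sgCPT1A counts was not known. With 1 library per group no difference was tested. Every interval is a 95% interval that covers counting error only, and amplified molecules of 1 cell are not independent of each other.

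The sgCPT1A library held 35557125 UMIs in 7198 barcodes and the sgVC library 155948212 UMIs in 9890 barcodes, with 18 barcode sequences in common. After filtering, 6743 sgCPT1A cells and 9323 sgVC cells were kept. Both libraries were clustered together without the interferon genes, and classes were named from fixed markers. The classes with 50 or more cells on both sides numbered 6. They were neutrophil-like (5123 sgCPT1A and 1798 sgVC cells), monocyte/macrophage-like (296 sgCPT1A and 1364 sgVC), dendritic-like (98 sgCPT1A and 260 sgVC), T-like (549 sgCPT1A and 851 sgVC), fibroblast-like (514 sgCPT1A and 402 sgVC) and pericyte or smooth muscle-like cells (73 sgCPT1A and 51 sgVC), the last called pericyte-like below. NK-like (86) and tumour-like cells (4473) were numerous enough in sgVC only. Each class led in its own markers. The summed level of the 10 neutrophil markers, for example, was 60501 CPM (the UMIs of a gene as a share of all UMIs of its class, in parts of 1e6) in sgCPT1A and 84995 CPM in sgVC neutrophil-like cells. Cpt1a itself stood at 28.7 CPM (18.0 to 43.5) in the 40 sgCPT1A tumour-like cells and 17.3 CPM (16.6 to 18.1) in sgVC tumour-like cells. Of these tumour-like cells 30 of 40 in sgCPT1A and 13 of 4473 in sgVC lay in the Epcam-positive cluster, so the cells compared are not alike. Cpt1a was also higher in sgCPT1A in other classes, at 15.9 CPM in sgCPT1A and 7.88 in sgVC neutrophil-like cells and 46.3 CPM in sgCPT1A and 27.8 in sgVC fibroblast-like cells. Reads from the 3′ end need not cover the site a guide alters, so neither the label nor the depletion is checked by this gene.

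Free RNA and mixed cells differed between the libraries. S100a8 plus S100a9, which are neutrophil genes, stood in T-like cells at 4.09% of their neutrophil-like level in sgCPT1A and 0.346% in sgVC. In monocyte/macrophage-like cells the share was 3.87% in sgCPT1A and 0.572% in sgVC, in dendritic-like cells 2.85% in sgCPT1A and 0.591% in sgVC, in fibroblast-like cells 1.16% in sgCPT1A and 0.169% in sgVC, and in pericyte-like cells 0.924% in sgCPT1A and 0.267% in sgVC. Tumour RNA lay the other way: Wfdc2, Krt8 and Krt18 stood in sgVC pericyte-like cells at 11.4% of their tumour-like level. The doublet caller marked 0 sgCPT1A cells and had therefore not worked there.

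The promoters of the module show the element through which ISGF3 acts. RefSeq promoters (GRCm38.p6, 250 bases before to 50 after a start) were at hand for 28 of the 38 members. An ISRE core, spelled GAAANNGAAA and read on both strands, was present for 16 of these 28 genes (57.1%) and for 1079 of 27025 genes in the same table (3.99%). A GAS core, TTCNNNGAA, an element known from the response to interferon gamma, was present for 6 members (21.4%) and for 9.55% of all genes. Both occurred together for 3 members (10.7%), against 0.614% of all genes. The windows below are those of the genes with the highest CPM in sgCPT1A neutrophil-like cells (Isg15, Rsad2), of genes whose ratio depends on the class (Ifit1), of 2 pairs of near copies (Ifit3 and Ifit3b, Oas1a and Oas1g), of the ISGF3 subunit Stat2 and of Bst2, which dendritic-like cells led. Capitals mark the ISRE core matches, which can overlap each other, which read TTTC instead of GAAA where the core lies on the other strand.
Isg15 (chr4:156200865-156200906, minus strand): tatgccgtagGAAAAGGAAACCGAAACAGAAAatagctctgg
Ifit1 (chr19:34640775-34640823, plus strand): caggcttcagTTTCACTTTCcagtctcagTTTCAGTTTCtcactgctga
Ifit3 (chr19:34583363-34583426, plus strand): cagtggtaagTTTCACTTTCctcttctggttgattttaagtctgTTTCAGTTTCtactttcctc
Ifit3b (chr19:34607759-34607822, plus strand): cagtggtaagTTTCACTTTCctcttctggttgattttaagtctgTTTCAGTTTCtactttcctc
Rsad2 (chr12:26456553-26456582, minus strand): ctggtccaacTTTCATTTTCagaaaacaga
Bst2 (chr8:71537577-71537612, minus strand): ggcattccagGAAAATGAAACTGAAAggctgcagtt
Stat2 (chr10:128270266-128270295, plus strand): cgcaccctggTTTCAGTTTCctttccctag
Oas1a (chr5:120907520-120907555, minus strand): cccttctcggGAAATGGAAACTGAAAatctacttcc
Oas1g (chr5:120887606-120887641, minus strand): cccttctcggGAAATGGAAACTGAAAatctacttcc
The Isg15 window holds 3 overlapping cores, the first matching base lying 78 bases before the start. Ifit3 and its neighbour Ifit3b share the same 64 bases, as Oas1a and Oas1g share 36. A match is a description of letters and not a mapped binding site.

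With UMIs summed over the cells of a class, the module stood higher in sgCPT1A in immune cells and pericyte-like cells and not in fibroblast-like cells. In pericyte-like cells the share of cells with at least 5 member UMIs, given below, was not higher. A member was counted as higher or lower where its CPM in a class differed by at least 1.5-fold between the libraries and it had at least 20 UMIs over both. In neutrophil-like cells 23 of 33 such members were higher, beside 17.4% of all 9202 genes with that many UMIs, and 1 was lower, beside 36.2%. In monocyte/macrophage-like cells 29 of 36 were higher (15.1% of all genes) and 0 were lower (25.1%). The median log2 ratio of sgCPT1A over sgVC was 0.99 in neutrophil-like and 0.98 in monocyte/macrophage-like cells, where that of all genes was −0.30 and −0.12.

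T-like cells had 22 of 34 members higher (13.3% of all genes) and 1 lower (14.3%), with a median log2 ratio of 0.69 beside −0.04 for all genes. Dendritic-like cells had 17 of 33 higher (18.2%) and 1 lower (18.8%), with medians of 0.70 and −0.01. Pericyte-like cells had 16 of 30 higher (22.9%) and 0 lower (18.6%), with medians of 0.66 and 0.05. In fibroblast-like cells 5 of 34 members were higher (16.0%) and 7 were lower (13.5%), shares close to the background, and the median was 0.01 beside −0.02. With free RNA subtracted the T-like count was 11 and the T-like median 0.34. The 12 T-like members then no longer higher were Isg15, Ifit2, Ifit3, Oasl2, Oas2, Oas3, Irf7, Rtp4, Trim30a, Isg20, Herc6 and Ifi27l2a, with log2 ratios of −0.03 (Oas2) to 0.54 (Ifi27l2a), and Ifi204 was then higher (0.79). In the same subtraction Ifit3, Oasl2, Trim30a and Parp14 were below the limit in dendritic-like cells, as were Irf7 and Oas3 in fibroblast-like and Isg15 in monocyte/macrophage-like cells. Other members then passed the 1.5-fold limit for lower. Among them were Isg15 (−0.77), Rsad2 (−0.77), Ifit1 (−0.75) and Herc6 (−0.67) in dendritic-like cells. So were Isg15 (−0.70) in fibroblast-like, Oasl1 (−0.63) in T-like and Rsad2 (−0.70) in monocyte/macrophage-like cells. With cells classed by their own markers, 30 of 35 dendritic-like, 10 of 35 fibroblast-like and 28 of 32 pericyte-like members were higher. The pericyte-like median was then 1.75. The shares of all genes above belong to the main classes, and none were computed under that classing or after the subtraction.

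**Figure D1:**
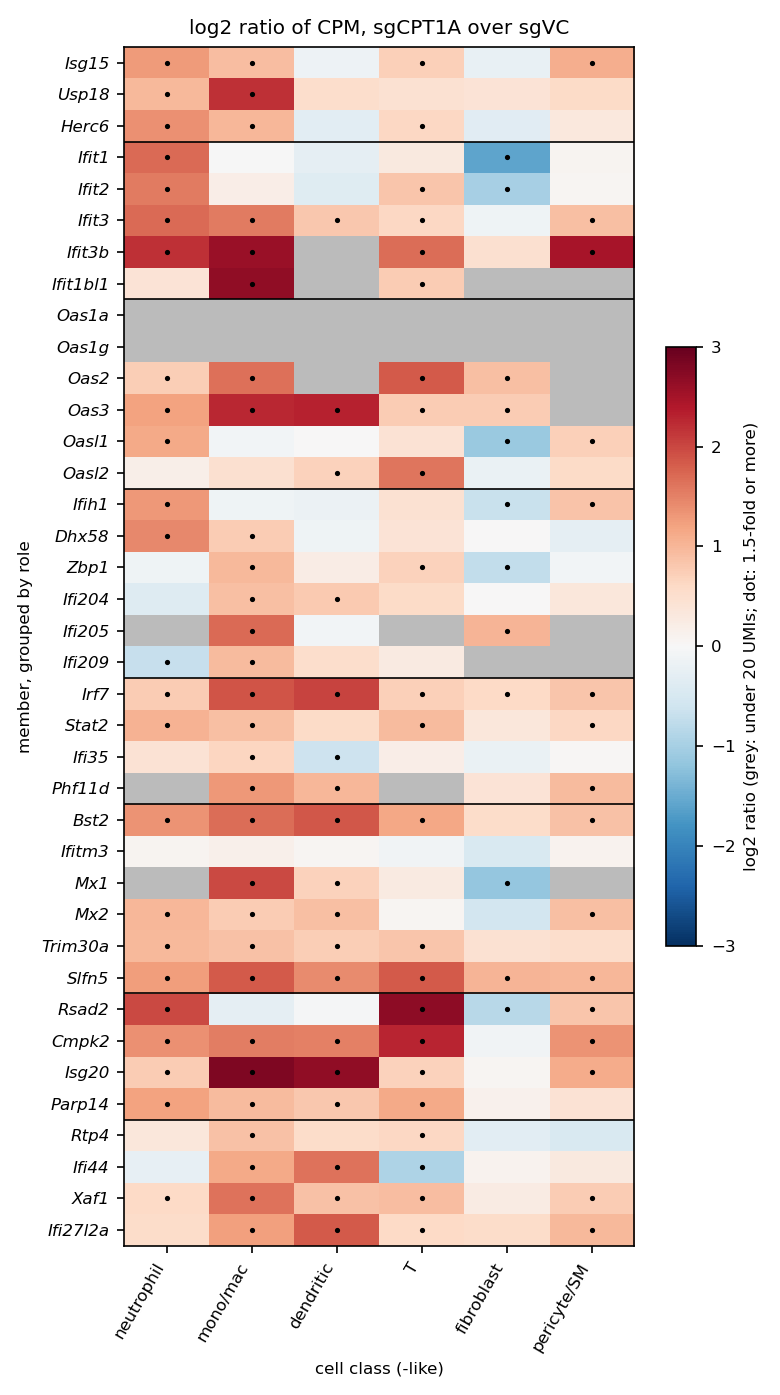
Log2 ratio of CPM, sgCPT1A over sgVC, for each of the 38 members (rows, grouped by role) in the 6 classes compared (columns). Red is higher in sgCPT1A, blue is lower, grey marks under 20 UMIs over both libraries, and a dot marks a difference of at least 1.5-fold. The fibroblast-like column holds 7 of the dots on blue, and the monocyte/macrophage-like column none.

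Summed over the module, neutrophil-like cells stood at 21746 CPM in sgCPT1A and 11082 CPM in sgVC, the highest of the 6 classes in both libraries. Monocyte/macrophage-like cells stood at 10558 CPM in sgCPT1A and 6523 in sgVC, pericyte-like cells at 7835 CPM in sgCPT1A and 6078 in sgVC, dendritic-like cells at 6057 CPM in sgCPT1A and 4086 in sgVC and T-like cells at 5419.9 CPM in sgCPT1A and 3891 in sgVC. Fibroblast-like cells stood at 3852 CPM in sgCPT1A and 4422 CPM in sgVC. These sums include Ifitm3, whose fibroblast-like log2 ratio was −0.45, and without Ifitm3 the fibroblast-like sum was not lower in sgCPT1A. In pericyte-like cells Ifitm3 alone stood at 3906 CPM in sgCPT1A and 3631 in sgVC. Without it the pericyte-like sum was below the dendritic-like one in both libraries. The top 3 members made up 53.5% of the module's UMIs in sgCPT1A neutrophil-like cells (Isg15, Rsad2 and Ifitm3) and 3 made up 51.0% in the sgVC ones (Ifitm3, Isg15 and Ifi27l2a).

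Neutrophil-like cells also led more members than any other class, in both libraries. Of the 36 members with at least 50 UMIs over the sgCPT1A classes, 24 had their highest CPM in neutrophil-like cells, where 11.2% of all genes had theirs. In sgVC it was 21 of 37, beside 10.0%. In 19 of the 35 members with enough UMIs in both libraries neutrophil-like cells led on both sides. The leading class differed for 11 of the 35, taken over 6 classes in sgCPT1A and 8 in sgVC. Among the 6 classes of both libraries 26 of the 35 had the same leading class, Ifi204 and Phf11d included. Some leads were narrow. The second class of Mx2 reached 97.3% of the leading one in sgCPT1A and 97.2% in sgVC. In sgVC the monocyte/macrophage-like and neutrophil-like levels of Ifit2 were all but equal. Monocyte/macrophage-like cells led Ifit1bl1, Mx1, Irf7, Ifi44, Ifi204, Ifi209, Dhx58 and Ifi27l2a in sgCPT1A, while dendritic-like cells led Ifi205 and Bst2, and pericyte-like cells Ifitm3 and Phf11d. T-like and fibroblast-like cells led 0 members in either library.

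Members split into those kept to 1 class and those spread over many. A member was called restricted where no second class reached 25% of the leading one, and shared where at least 50% of the classes of that library did. In sgCPT1A 8 of 36 members were restricted, beside 11.6% of all genes, all to neutrophil-like cells (Isg15, Ifit1, Ifit3b, Rsad2, Rtp4, Isg20, Herc6 and Parp14), and 21 were shared, beside 73.2%. In sgVC 9 of 37 were restricted (9.17% of all genes), 8 of them to neutrophil-like cells (Isg15, Ifit3b, Oas2, Oas3, Usp18, Rtp4, Isg20 and Parp14) and Oas1a to tumour-like cells, and 20 were shared (68.9%). Isg15, Ifit3b, Rtp4, Isg20 and Parp14 were restricted in both libraries, and 17 members were shared in both. When cells were classed by their own markers instead of their cluster, 1 sgCPT1A member was restricted.

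**Figure D2:**
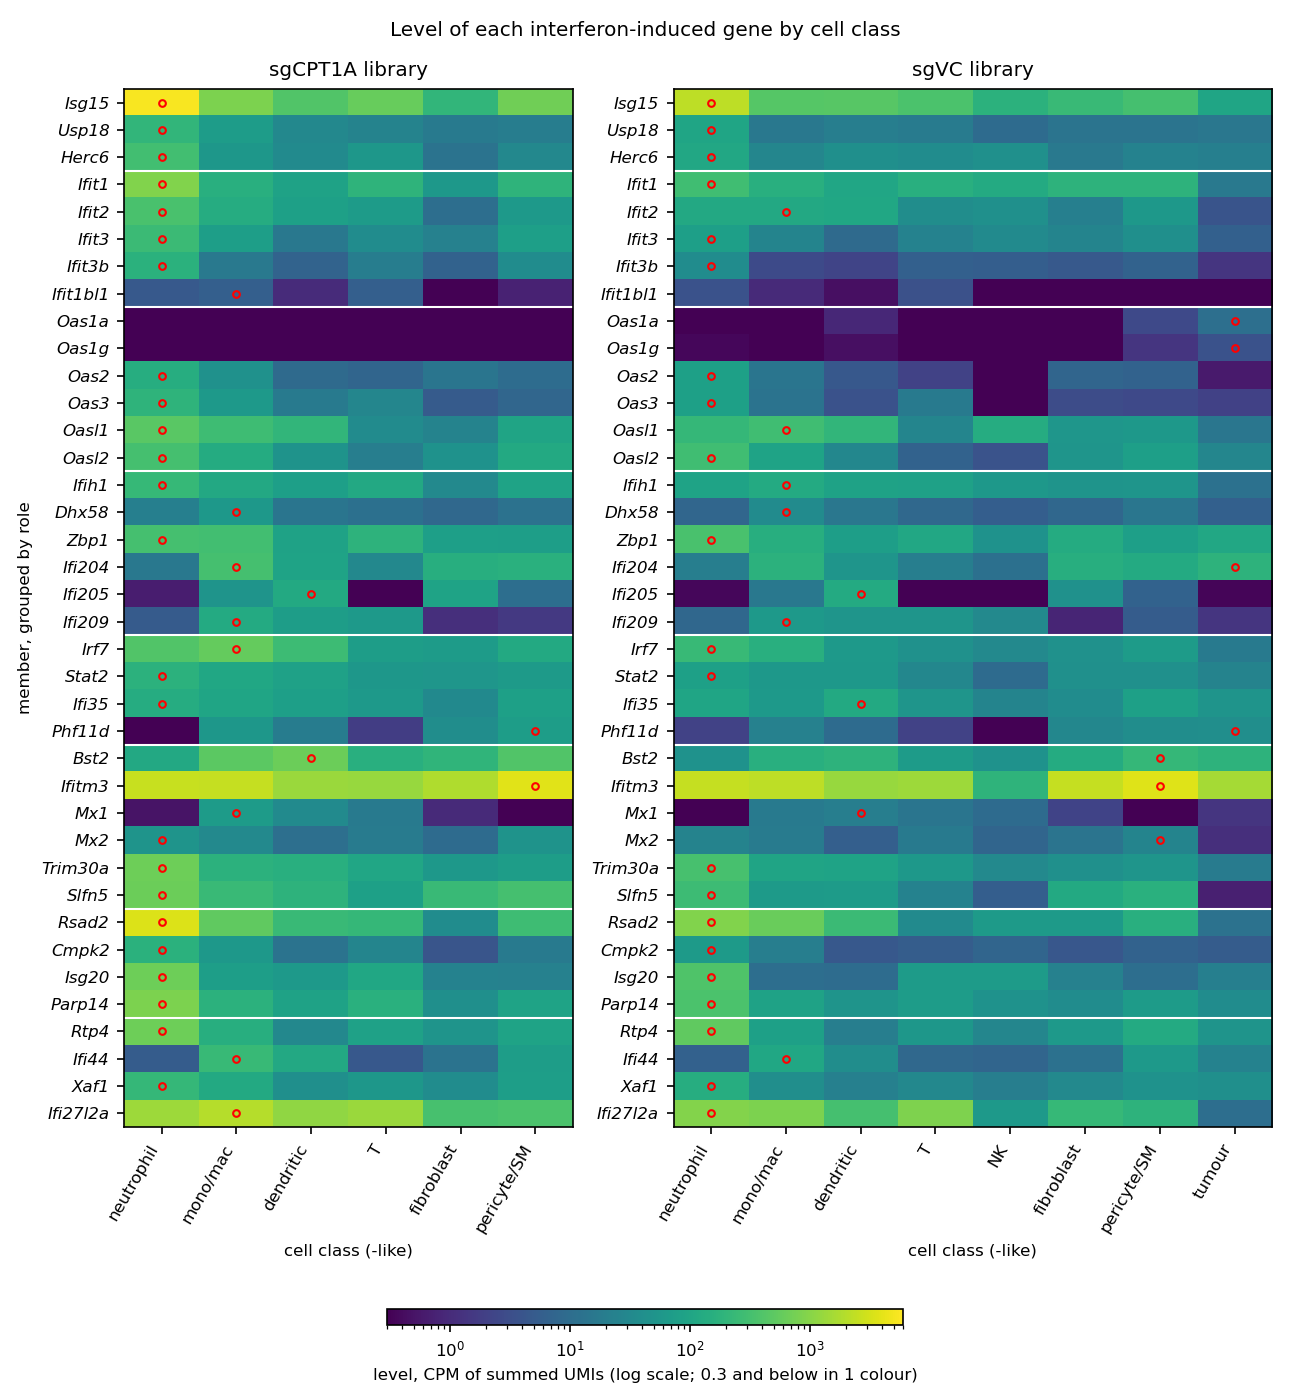
Level of each member (rows, grouped by role) as CPM of summed UMIs, on a logarithmic colour scale, in the 6 sgCPT1A classes (left) and the 8 sgVC classes (right). A red ring marks the leading class of a member with at least 50 UMIs in that library. Rings stand in the neutrophil-like column for 24 members in sgCPT1A and 21 in sgVC.

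The 3 members of ISG15 conjugation were all higher in neutrophil-like and in monocyte/macrophage-like cells of sgCPT1A. Isg15 encodes a ubiquitin-like protein that is attached to newly made proteins and also secreted. It stood at 5378 CPM (73653 UMIs) in sgCPT1A neutrophil-like cells and 2224 CPM (6212 UMIs) in sgVC ones, a log2 ratio of 1.27 (1.24 to 1.31). No other class reached 25% of these levels: monocyte/macrophage-like cells, the second in sgCPT1A, stood at 849 CPM there and 449 CPM in sgVC (0.92, 0.84 to 1.00), and with free RNA subtracted at 641 CPM in sgCPT1A and 435 in sgVC (0.56), below the 1.5-fold limit. In T-like cells Isg15 stood at 599 CPM in sgCPT1A and 366 CPM in sgVC (0.71, 0.61 to 0.81), which became 379 CPM in sgCPT1A and 357 in sgVC with free RNA subtracted. It was not higher in dendritic-like cells (412 CPM in sgCPT1A and 459 in sgVC) or fibroblast-like cells (207 CPM in sgCPT1A and 242 in sgVC). With free RNA subtracted the Isg15 log2 ratio was −0.77 in dendritic-like and −0.70 in fibroblast-like cells, past the 1.5-fold limit for lower. Usp18, the protease that removes ISG15 and damps IFNAR signalling, was at 201 CPM in sgCPT1A and 103 in sgVC in neutrophil-like cells (0.97, 0.79 to 1.15). The wider ratio of Usp18 was in monocyte/macrophage-like cells, with 70.6 CPM in sgCPT1A and 15.6 CPM in sgVC (2.18, 1.84 to 2.52). Herc6, the main ISG15 ligase of the mouse, stood at 295 CPM in sgCPT1A and 113 in sgVC in neutrophil-like cells (1.38, 1.21 to 1.55); a same-strand predicted gene shares an exon with it, so its reads can be divided.

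The IFIT family, proteins that bind foreign RNA ends and block their translation, held 2 members, Ifit1 and Ifit2, that were higher in neutrophil-like and lower in fibroblast-like cells of sgCPT1A. Its 5 members lie within 99.3 kb of chromosome 19 (GRCm38), and 4 of the 5 were higher in sgCPT1A neutrophil-like cells. Ifit1 stood there at 933 CPM in sgCPT1A and 286 CPM in sgVC, a log2 ratio of 1.70 (1.60 to 1.81). In fibroblast-like cells it lay the other way, at 59.2 CPM in sgCPT1A and 178 CPM in sgVC (−1.59, −1.73 to −1.45), and in monocyte/macrophage-like cells it was at 156 CPM in both (−0.01, −0.18 to 0.16).

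The log2 ratio of Ifit2 was 1.55 (1.39 to 1.72) in neutrophil-like cells, with 351 CPM in sgCPT1A and 120 CPM in sgVC, and −0.99 (−1.35 to −0.63) in fibroblast-like cells, with 10.7 CPM in sgCPT1A and 21.3 in sgVC. A single cell held 34.4% of the sgVC fibroblast-like UMIs of Ifit2. Without the top cell of each library the fibroblast-like ratio was −0.45, below the 1.5-fold limit. Ifit3, which stabilises IFIT1 in man, was higher in 5 of the 6 classes, including neutrophil-like (258 CPM in sgCPT1A and 80.2 in sgVC; 1.69, 1.49 to 1.89) and monocyte/macrophage-like cells (76.6 CPM in sgCPT1A and 26.1 in sgVC; 1.55, 1.26 to 1.84). Ifit3b, a near copy of Ifit3 that shares its promoter window above, had the widest neutrophil ratio of the module, 168 CPM in sgCPT1A and 36.5 CPM in sgVC (2.20, 1.91 to 2.50). Near-identical sequence can divide reads between them: 14.9% of the 50-base words in the last 500 bases of Ifit3 transcripts also occurred in Ifit3b. Ifit1bl1 was rare, with 65 UMIs in sgCPT1A and 10 in sgVC in neutrophil-like cells and 13 in sgCPT1A and 9 in sgVC in monocyte/macrophage-like cells.

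The OAS family, synthetases of the 2′-5′ oligoadenylates that activate RNase L, contained both neutrophil-restricted genes and genes that neutrophils lacked. Its 6 members lie on chromosome 5. Oas3 was higher in 5 classes. It stood in neutrophil-like cells at 191 CPM in sgCPT1A and 82.3 CPM in sgVC (1.21, 1.02 to 1.41), and in monocyte/macrophage-like cells at 62.2 CPM in sgCPT1A and 13.1 in sgVC (2.25, 1.88 to 2.61). Oas2 was at 141 CPM in sgCPT1A and 84.5 in sgVC in neutrophil-like cells (0.74, 0.55 to 0.94) and at 44.6 CPM in sgCPT1A and 14.2 in sgVC in monocyte/macrophage-like cells (1.65, 1.26 to 2.04). In sgVC both were restricted to neutrophil-like cells, and in sgCPT1A monocyte/macrophage-like cells reached 31.5% (Oas2) and 32.6% (Oas3) of the neutrophil level.

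Oas1a and Oas1g, neighbouring copies with the same 36-base promoter window, were all but absent from immune cells. Oas1a had 0 UMIs in neutrophil-like cells of either library, which allows a level of up to 3 UMIs in each. In tumour-like cells Oas1a had 4 UMIs in sgCPT1A (40 cells) and 1337 in sgVC (11.0 CPM), and Oas1g had 2 UMIs in sgCPT1A and 445 in sgVC (3.66 CPM). Since 56.1% of 50-base words at the Oas1a 3′ end occur in Oas1g, the division between the pair is uncertain. Oasl1 and Oasl2 encode OAS-like proteins; in the mouse OASL1 restrains translation of Irf7. Oasl1 was higher in neutrophil-like cells (475 CPM in sgCPT1A and 216 in sgVC; 1.14, 1.02 to 1.26), level in monocyte/macrophage-like cells (272 CPM in sgCPT1A and 287 in sgVC; −0.08, −0.21 to 0.05) and lower in fibroblast-like cells (25.2 CPM in sgCPT1A and 54.8 in sgVC; −1.12, −1.35 to −0.90). Oasl2 differed little in neutrophil-like cells, at 329 CPM in sgCPT1A and 292 in sgVC (0.17, 0.07 to 0.28).

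Among the nucleic acid sensors 2 of 5 members were higher in neutrophil-like cells, with a median log2 ratio of −0.13. Ifih1 (MDA5, a sensor of long double-stranded RNA) was higher there, at 225 CPM in sgCPT1A and 92.0 CPM in sgVC (1.29, 1.11 to 1.48), and lower in fibroblast-like cells, at 31.9 CPM in sgCPT1A and 50.5 in sgVC (−0.66, −0.88 to −0.44). Dhx58 (LGP2, a regulator of MDA5) was higher too, from few UMIs (294 in sgCPT1A and 22 in sgVC; 1.45, 0.82 to 2.14). Zbp1, a sensor of Z-form nucleic acid that can start necroptosis, was level in neutrophil-like cells (319 CPM in sgCPT1A and 349 in sgVC; −0.13, −0.23 to −0.03). It was higher in monocyte/macrophage-like cells (297 CPM in sgCPT1A and 152 in sgVC; 0.97, 0.83 to 1.10) and lower in fibroblast-like cells (80.5 CPM in sgCPT1A and 134 in sgVC; −0.73, −0.87 to −0.60).

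The 3 members of the AIM2-like receptor cluster on chromosome 1, which holds DNA-binding interferon-inducible proteins, had their highest sgCPT1A levels in monocyte/macrophage-like (Ifi204, Ifi209) or dendritic-like cells (Ifi205). Ifi204 stood at 328 CPM in sgCPT1A and 174 CPM in sgVC monocyte/macrophage-like cells (0.91, 0.78 to 1.04) and at 15.6 CPM in sgCPT1A and 20.4 in sgVC in neutrophil-like cells. In sgVC its highest level was in tumour-like cells, at 183 CPM. Ifi209 stood at 126 CPM in sgCPT1A and 64.6 in sgVC in monocyte/macrophage-like cells (0.96, 0.75 to 1.17) and was the 1 member lower in neutrophil-like cells, on 70 sgCPT1A and 23 sgVC UMIs (5.11 CPM in sgCPT1A and 8.23 in sgVC; −0.69, −1.39 to 0.06). Ifi205 led in dendritic-like cells of both libraries, at 123 CPM in sgCPT1A and 130 CPM in sgVC (−0.08, −0.40 to 0.23). It was higher in monocyte/macrophage-like (50.1 CPM in sgCPT1A and 15.6 in sgVC; 1.69, 1.32 to 2.06) and fibroblast-like cells (92.7 CPM in sgCPT1A and 45.5 in sgVC; 1.03, 0.84 to 1.22), and T-like cells had 0 UMIs of it in both libraries. Reads of Ifi205 and Ifi209 can be divided with their near copies, since 39.6% and 47.8% of their 3′-end words occur in other genes of the cluster.

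Among the transcription factors and signalling members, 4 of 4 were higher in monocyte/macrophage-like cells and 2 of 3 in neutrophil-like cells. Irf7, the factor that amplifies interferon alpha production, was higher in all 6 classes as counted; with free RNA subtracted its log2 ratio was 0.39 in T-like and 0.52 in fibroblast-like cells, both below the 1.5-fold limit. Irf7 stood at 571 CPM in sgCPT1A and 155 CPM in sgVC monocyte/macrophage-like cells (1.88, 1.77 to 1.99), at 263 CPM in sgCPT1A and 64.3 in sgVC in dendritic-like cells (2.03, 1.73 to 2.34) and at 404 CPM in sgCPT1A and 237 in sgVC in neutrophil-like cells (0.77, 0.65 to 0.89). Its leading class was monocyte/macrophage-like in sgCPT1A and neutrophil-like in sgVC. Plasmacytoid dendritic cells express Irf7 and Bst2 at rest, and the 6 plasmacytoid markers summed to 967 CPM in sgCPT1A and 367 CPM in sgVC dendritic-like cells. Plasma cell markers summed there to 15474 CPM in sgCPT1A and 3432 in sgVC, B cell markers to 527 CPM in sgCPT1A and 159 in sgVC, neutrophil markers to 1831 CPM in sgCPT1A and 670 in sgVC, and monocyte/macrophage markers to 803 CPM in sgCPT1A and 401 in sgVC. Their part in the dendritic-like ratios was not tested. In fibroblast-like cells Irf7 stood at 67.5 CPM in sgCPT1A and 44.8 in sgVC (0.59, 0.39 to 0.79), close to the 1.5-fold limit. Its pericyte-like ratio was 0.83 (0.37 to 1.32) and, with each cell weighted equally, −0.33.

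Stat2, the ISGF3 subunit, stood at 175 CPM in sgCPT1A and 84.9 CPM in sgVC neutrophil-like cells (1.04, 0.85 to 1.24), at 111 CPM in sgCPT1A and 59.2 in sgVC in monocyte/macrophage-like cells (0.90, 0.67 to 1.12) and at 55.9 CPM in sgCPT1A and 29.1 in sgVC in T-like cells (0.94, 0.58 to 1.31). It reached at least 25% of its leading class in all 6 sgCPT1A classes. Ifi35, an interferon-induced leucine zipper protein, was the 1 member lower in dendritic-like cells, at 81.4 CPM in sgCPT1A and 124 CPM in sgVC (−0.61, −0.98 to −0.24), and with cells classed by their own markers the ratio was 0.07. Phf11d, a PHD-finger gene, was led by pericyte-like cells in sgCPT1A (73.4 CPM in sgCPT1A and 38.0 in sgVC; 0.95, 0.33 to 1.61) and had 3 UMIs in sgCPT1A and 6 in sgVC in neutrophil-like cells.

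Membrane and restriction proteins separated into 1 gene that was level and several with wide ratios. Ifitm3, which blocks virus entry at endosomes and is expressed at rest in many tissues, differed by less than 1.5-fold in all 6 classes. It stood at 2634 CPM in sgCPT1A and 2474 CPM in sgVC neutrophil-like cells (0.09, 0.05 to 0.13) and at 3906 CPM in sgCPT1A and 3631 in sgVC in pericyte-like cells (0.11, 0.04 to 0.17), its leading class in both libraries. Its largest difference was in fibroblast-like cells, at 1815 CPM in sgCPT1A and 2480.2 in sgVC (−0.45, −0.48 to −0.42). Since Ifitm3 makes up a large part of the module's sums, shares below are given with and without it.

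Bst2 (tetherin, which holds budding virus on the cell) was higher in 5 classes. In dendritic-like cells it stood at 651 CPM in sgCPT1A and 178 CPM in sgVC (1.87, 1.69 to 2.06), in monocyte/macrophage-like cells at 493 CPM in sgCPT1A and 155 in sgVC (1.67, 1.56 to 1.79) and in neutrophil-like cells at 119 CPM in sgCPT1A and 46.9 in sgVC (1.34, 1.08 to 1.61). Slfn5, of the Schlafen family, was higher in all 6 classes, with free RNA subtracted too. Its log2 ratios ran from 0.99 (0.69 to 1.29) in pericyte-like cells to 1.85 (1.68 to 2.02) in monocyte/macrophage-like cells, and in fibroblast-like cells it stood at 248 CPM in sgCPT1A and 124 CPM in sgVC (1.01, 0.89 to 1.13). Trim30a, a ubiquitin ligase that tempers NF-kB signalling in the mouse, was higher in 4 classes, with 664 CPM in sgCPT1A and 338 in sgVC in neutrophil-like cells (0.97, 0.88 to 1.07).

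Mx1 and Mx2 encode dynamin-like GTPases; the annotation classes Mx2 as a polymorphic pseudogene. Mx1 was nearly silent in neutrophil-like cells, with 7 UMIs in sgCPT1A and 0 in sgVC, while Mx2 had 681 UMIs in sgCPT1A and 70 in sgVC there (49.7 CPM in sgCPT1A and 25.1 in sgVC; 0.99, 0.63 to 1.36). In monocyte/macrophage-like cells Mx1 stood at 68.3 CPM in sgCPT1A and 17.5 CPM in sgVC (1.97, 1.63 to 2.30). In fibroblast-like cells it was lower on 12 UMIs in sgCPT1A and 13 in sgVC (−1.16, −2.42 to 0.09).

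**Figure D3:**
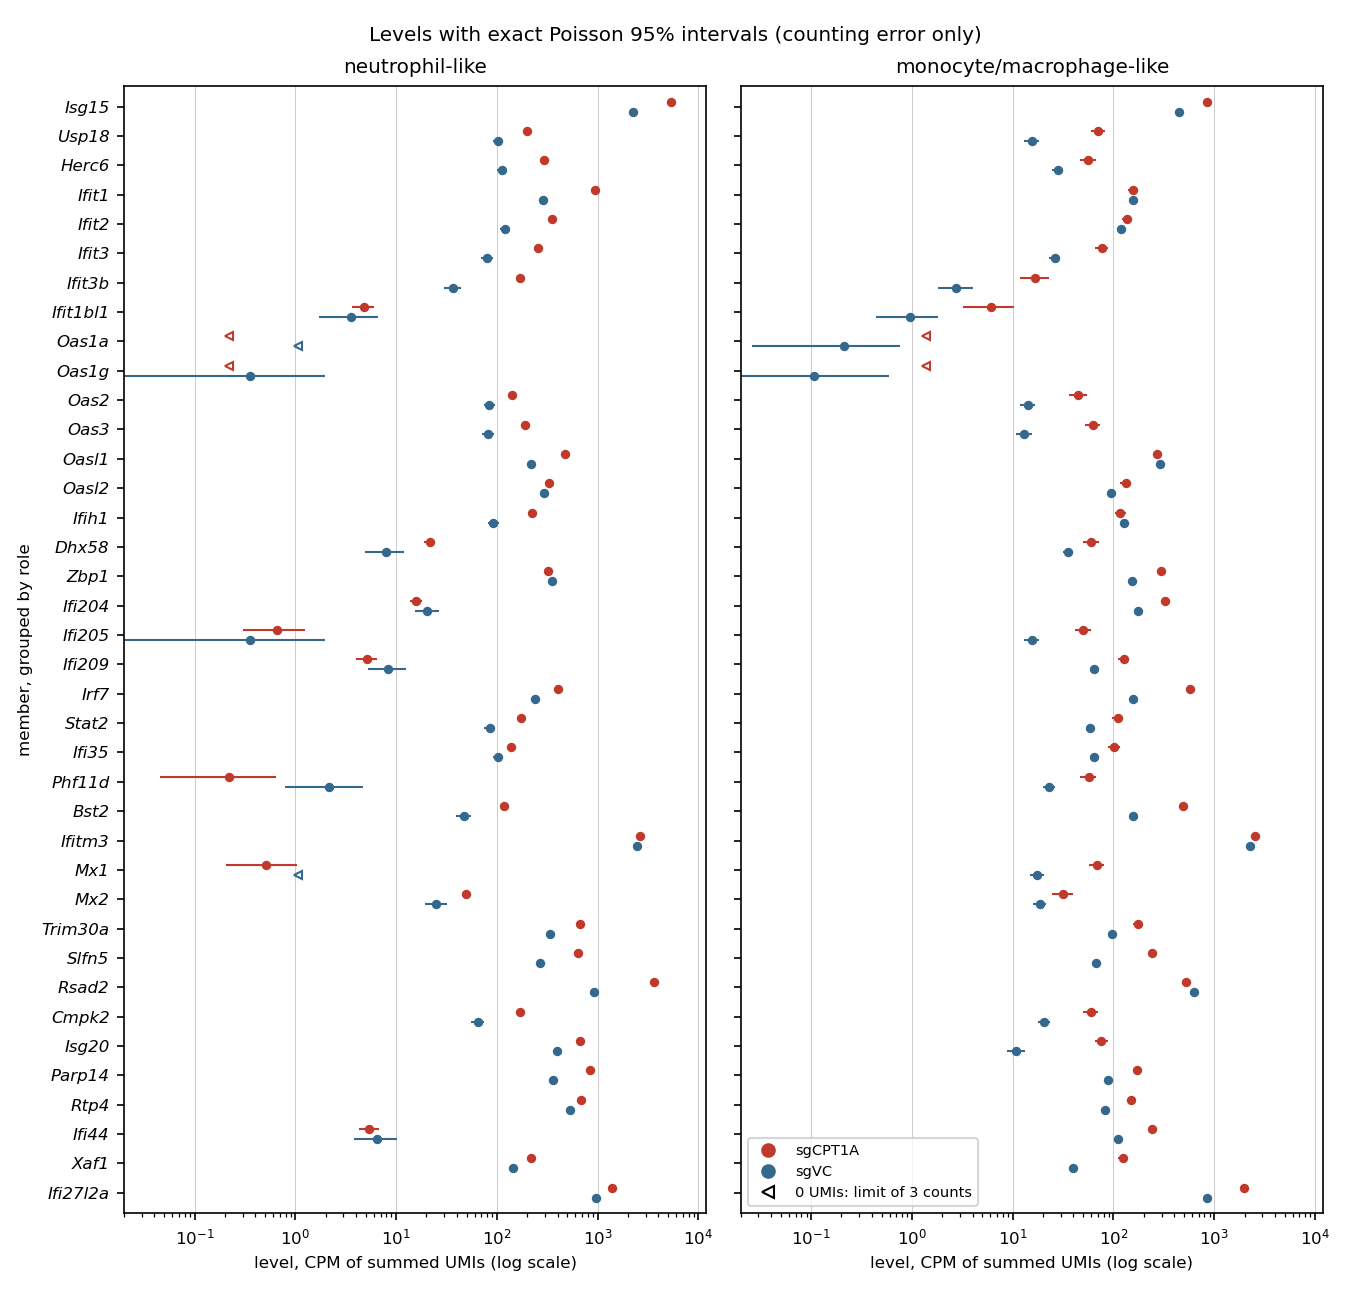
Level of each member as CPM of summed UMIs on a logarithmic axis, in neutrophil-like (left) and monocyte/macrophage-like cells (right), with sgCPT1A in red above sgVC in blue. Lines are exact Poisson 95% intervals and open triangles the limit that 0 UMIs allows. Rsad2 (1.99) and Ifit1 (1.70) have wide log2 ratios in neutrophil-like cells and ratios of −0.26 and −0.01 in monocyte/macrophage-like cells, where Isg20 has the widest (2.81).

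The enzymes of the module were higher in all 4 cases in neutrophil-like and T-like cells. Rsad2 encodes viperin, which makes a chain-terminating nucleotide, and its neighbour Cmpk2 on chromosome 12 encodes the mitochondrial kinase that supplies the nucleotide. Rsad2 stood at 3626 CPM (49655 UMIs) in sgCPT1A neutrophil-like cells and 914 CPM (2552 UMIs) in sgVC ones (1.99, 1.93 to 2.05). In monocyte/macrophage-like cells it was not higher, at 525 CPM in sgCPT1A and 629 in sgVC (−0.26, −0.35 to −0.17), and in fibroblast-like cells it was lower, at 37.4 CPM in sgCPT1A and 67.0 in sgVC (−0.84, −1.04 to −0.65), although with cells classed by their own markers that ratio was 0.16. With free RNA subtracted the monocyte/macrophage-like ratio was −0.70, past the 1.5-fold limit for lower. T-like cells had the widest Rsad2 ratio, 220 CPM in sgCPT1A and 34.1 CPM in sgVC (2.69, 2.40 to 2.99). There 1 cell held 19.2% of the sgCPT1A UMIs, and with free RNA subtracted the levels were 72.1 CPM in sgCPT1A and 30.8 in sgVC (1.23).

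Cmpk2 was higher also in monocyte/macrophage-like cells, where Rsad2 was not. Its log2 ratio was 1.38 (1.16 to 1.60) in neutrophil-like cells, with 169 CPM in sgCPT1A and 65.2 CPM in sgVC, and 1.54 (1.20 to 1.87) in monocyte/macrophage-like cells, with 59.4 CPM in sgCPT1A and 20.5 in sgVC. Isg20, an exonuclease that degrades single-stranded RNA, was restricted to neutrophil-like cells in both libraries (674 CPM in sgCPT1A and 398 in sgVC; 0.76, 0.67 to 0.85). Its widest ratio was in monocyte/macrophage-like cells, at 76.1 CPM in sgCPT1A and 10.9 CPM in sgVC (2.81, 2.44 to 3.18), the widest of any member there. Parp14, a mono-ADP-ribosyltransferase, was also neutrophil-restricted in both libraries (839 CPM in sgCPT1A and 362 in sgVC; 1.21, 1.12 to 1.31) and higher in T-like cells (160 CPM in sgCPT1A and 72.4 in sgVC; 1.14, 0.92 to 1.36); a same-strand predicted gene overlaps one of its exons.

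Of the remaining members, 1 of 4 was higher in neutrophil-like cells and 4 of 4 in monocyte/macrophage-like cells. Ifi27l2a, which encodes a small interferon-induced protein, stood at 1972 CPM in sgCPT1A and 846 CPM in sgVC monocyte/macrophage-like cells (1.22, 1.17 to 1.28), at 1159 CPM in sgCPT1A and 326 in sgVC in dendritic-like cells (1.83, 1.70 to 1.97) and at 1393 CPM in sgCPT1A and 957 in sgVC in neutrophil-like cells (0.54, 0.48 to 0.60). Rtp4, a chaperone of G protein-coupled receptors that restrains the interferon response, was restricted to neutrophil-like cells in both libraries yet differed little there (681 CPM in sgCPT1A and 538 in sgVC; 0.34, 0.26 to 0.42). Its level was high and restricted, and its ratio narrow.

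Ifi44 stood at 241 CPM in sgCPT1A and 111 CPM in sgVC monocyte/macrophage-like cells (1.13, 0.97 to 1.28). It was scarce in neutrophil-like cells (5.40 CPM in sgCPT1A and 6.44 in sgVC) and was the 1 member lower in T-like cells, on 15 UMIs in sgCPT1A and 29 in sgVC (−0.93, −1.94 to 0.01). Xaf1, a pro-apoptotic binder of XIAP, was higher in 5 classes. In neutrophil-like cells it stood at 220 CPM in sgCPT1A and 145 in sgVC (0.60, 0.45 to 0.76), and with the sgCPT1A sub-clusters weighted by the sgVC mix the ratio was −0.03.

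Across classes, 2 members were higher in all 6 (Irf7 and Slfn5) and 6 in 5 (Ifit3, Oas3, Cmpk2, Xaf1, Bst2 and Isg20), a description for which no share of all genes was computed. With free RNA subtracted the T-like ratios of Irf7 (0.39), Ifit3 (0.16), Oas3 (0.32) and Isg20 (0.30) were below the limit, as were the dendritic-like ratio of Ifit3 (0.06) and the fibroblast-like ratios of Irf7 (0.52) and Oas3 (0.04). With sub-clusters weighted by the sgVC mix, the neutrophil-like ratios of Irf7 (0.46), Bst2 (0.47), Isg20 (0.29) and Xaf1 (−0.03) were below the limit. Without the subtraction or the weighting another 8 were higher in 4 classes, 3 in 3, 13 in 2 and 3 in 1. The 3 members higher in none were Ifitm3, which was abundant and differed by under 1.5-fold, and Oas1a and Oas1g, which had too few UMIs. Members with an ISRE core in the promoter had a median log2 ratio of 1.27 in neutrophil-like cells (13 with enough UMIs) and those without one 0.76 (11 members). In dendritic-like cells the medians were 0.31 with the core and 0.79 without.

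Pericyte-like values rested on few cells. A single cell held 58.3% of the sgCPT1A Ifi27l2a UMIs in that class (270 of 463), and 1 cell held 44.8% of the sgCPT1A and 47.7% of the sgVC Oasl1 UMIs. Leaving out the top cell of each library for each member, Ifi27l2a had a log2 ratio of 0.17 rather than 0.97, while Ifit3b had 2.48, Cmpk2 1.87 and Isg15 1.10. Fibroblast markers summed to 11017 CPM in sgCPT1A and 2451 CPM in sgVC pericyte-like cells, endothelial markers to 676 CPM in sgCPT1A and 2630.2 in sgVC, and monocyte/macrophage markers to 473 CPM in sgCPT1A and 126 in sgVC; their part in the ratios was not tested.

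Different clusters held most of the neutrophil-like cells in each library. Sub-clustering without interferon genes gave 5 sub-clusters with at least 20 cells in each library, and sub-clusters 0 and 1, which held 1741 and 1647 of the sgCPT1A cells, held 132 and 48 of the sgVC cells. Sub-cluster 3, led by the hypoxia-linked genes Fam162a, Higd1a and Bnip3, held 216 sgCPT1A and 922 sgVC cells. Within each of the 5 the module without Ifitm3 was higher in sgCPT1A, with 11899 CPM in sgCPT1A against 8550.1 CPM in sgVC in sub-cluster 3 and 20220.5 CPM in sgCPT1A against 7694 CPM in sgVC in sub-cluster 1, led by Saa3 and Lcn2. The median log2 ratio of the members was 0.77 in sub-cluster 0, 0.60 in sub-cluster 2, 0.32 in sub-cluster 3 and 0.35 in sub-cluster 4. Members higher in sgCPT1A numbered 18 of 32 in sub-cluster 0, 28 of 33 in sub-cluster 1, 17 of 33 in sub-cluster 2, 10 of 29 in sub-cluster 3 and 10 of 29 in sub-cluster 4, with no share of all genes computed within a sub-cluster.

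With sub-clusters held apart, the ratios differed between members. Rsad2 was at 1579 CPM in sgCPT1A and 577 CPM in sgVC cells of sub-cluster 2 (1.45, 1.32 to 1.58) and at 2304 CPM in sgCPT1A and 1054 in sgVC in sub-cluster 3 (1.13, 1.02 to 1.24). Isg15 was at 3387 CPM in sgCPT1A and 2158 in sgVC in sub-cluster 2 (0.65, 0.58 to 0.72). Zbp1 was at 302 CPM in sgCPT1A and 388 in sgVC there (−0.36, −0.54 to −0.18). With the sgCPT1A levels weighted by the sgVC mix of sub-clusters, 15 members were higher, the median was 0.56, Isg15 was at 3677 CPM in sgCPT1A and 2272 in sgVC (0.69), Rsad2 at a log2 ratio of 1.27 and Ifit3b at 1.66. Members then no longer higher were Oas2 (0.44), Mx2 (0.18), Usp18 (0.29), Irf7 (0.46), Xaf1 (−0.03), Trim30a (0.58), Bst2 (0.47), Isg20 (0.29) and Parp14 (0.56). Ifi27l2a (0.62) was then higher.

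**Figure D4:**
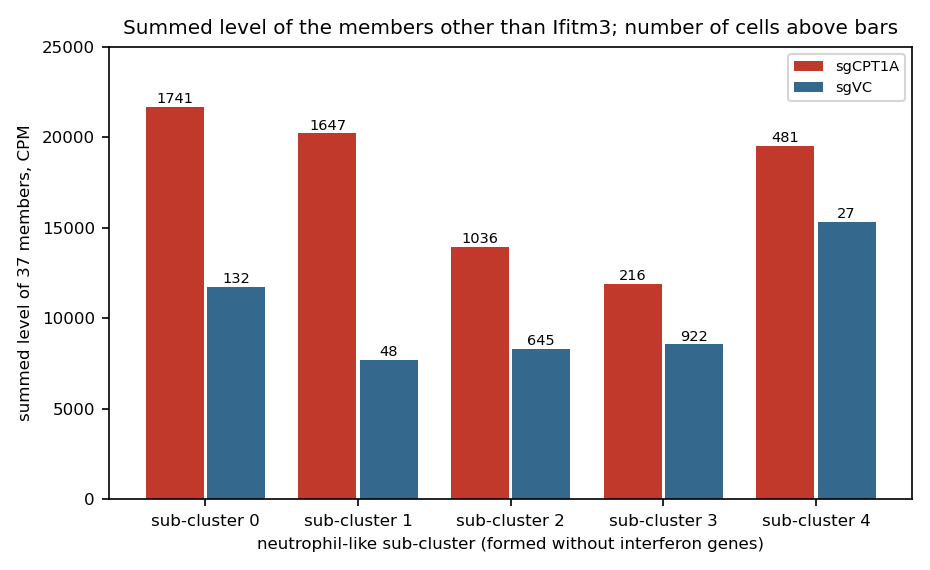
Summed CPM of the 37 members other than Ifitm3 in 5 neutrophil-like sub-clusters, sgCPT1A in red left of sgVC in blue, with the number of cells above each bar and no error bar. The red bar is the taller in each sub-cluster, 21696 CPM in sgCPT1A against 11741 CPM in sgVC in sub-cluster 0, and 11899 CPM in sgCPT1A against 8550.1 CPM in sgVC in sub-cluster 3.

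The signal was spread over most neutrophil-like cells rather than a few. After each cell was thinned to 1000 UMIs (461 sgCPT1A and 331 sgVC neutrophil-like cells were shallower), 89.3% of sgCPT1A (88.4 to 90.2%) and 71.8% of sgVC neutrophil-like cells (69.5 to 74.1%) held at least 5 member UMIs, with medians of 18.0 in sgCPT1A and 8.00 in sgVC. Without Ifitm3 the shares were 86.9% in sgCPT1A and 61.0% in sgVC. Isg15 had a UMI in 88.3% of thinned sgCPT1A and 67.1% of sgVC neutrophil-like cells, and Rsad2 in 69.9% of sgCPT1A and 33.5% of sgVC ones. In sgVC tumour-like cells, which led neither gene, the share was 9.20% for Isg15 and 1.04% for Rsad2.

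In the other immune classes fewer cells passed the limit of 5 UMIs. It was met by 68.0% of sgCPT1A (62.1 to 73.5%) and 59.8% of sgVC monocyte/macrophage-like cells (57.0 to 62.5%), by 46.2% of sgCPT1A and 35.0% of sgVC dendritic-like cells, and by 46.2% of sgCPT1A and 35.1% of sgVC T-like cells. Without Ifitm3 it was met by 58.2% of sgCPT1A and 42.2% of sgVC monocyte/macrophage-like cells. The shares without Ifitm3 were 38.5% in sgCPT1A and 21.9% in sgVC dendritic-like cells, and 34.4% in sgCPT1A and 21.8% in sgVC T-like cells. Fibroblast-like cells met it in 31.8% of sgCPT1A and 41.3% of sgVC cells, and without Ifitm3 in 13.2% of sgCPT1A and 13.5% of sgVC cells. Pericyte-like cells met it in 65.2% of sgCPT1A (52.8 to 76.3%) and 74.0% of sgVC cells (59.7 to 85.4%). Without Ifitm3 the pericyte-like shares were 23.2% in sgCPT1A and 26.0% in sgVC. Among neutrophil-like cells Ifit1 had a UMI in 42.7% of thinned sgCPT1A cells with an Isg15 UMI and 9.52% of those without, and in 20.3% of sgVC cells with and 4.15% of those without. Rsad2 had a UMI in 74.4% of sgCPT1A cells with an Isg15 UMI and 36.3% of those without, and in 41.3% of sgVC cells with and 17.4% of those without.

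**Figure D5:**
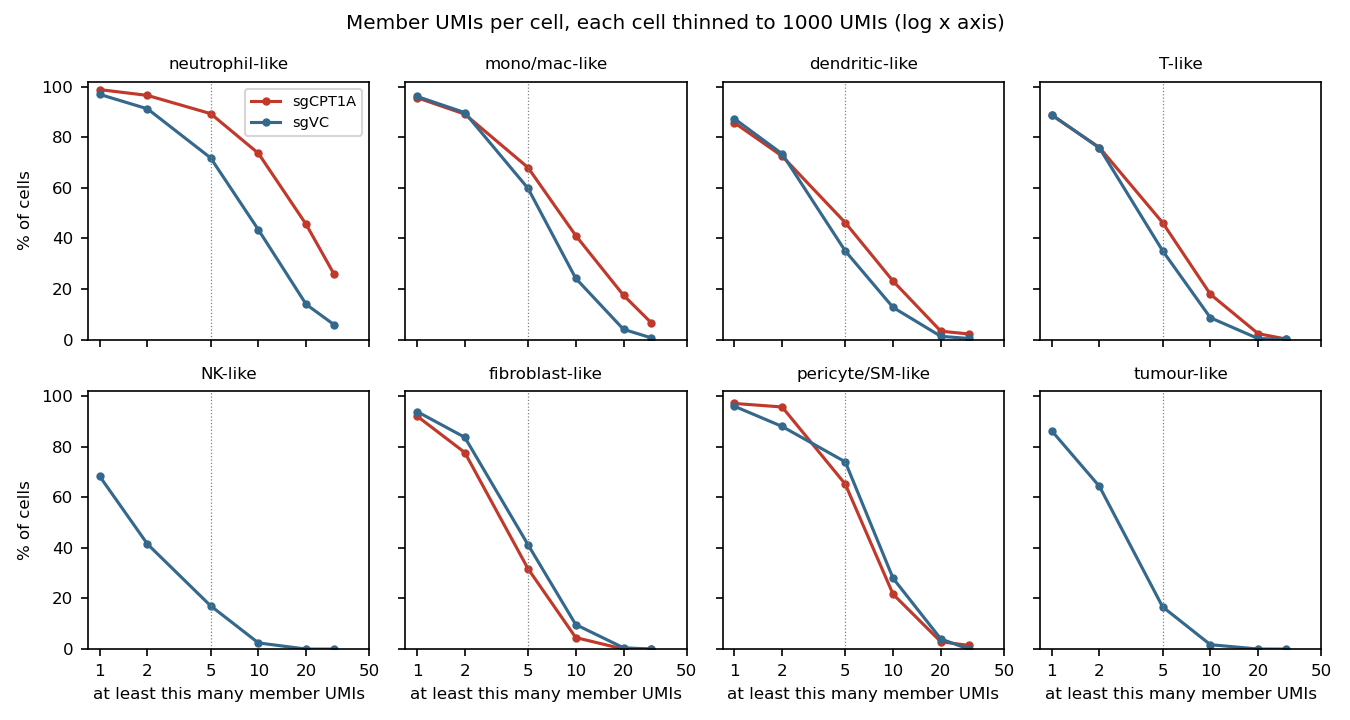
Share of cells (%) with at least a given number of member UMIs (logarithmic horizontal axis) after thinning each cell to 1000 UMIs, by class, sgCPT1A in red and sgVC in blue. The dotted line marks 5 UMIs, where the neutrophil-like curves stand at 89.3% in sgCPT1A and 71.8% in sgVC and the fibroblast-like ones at 31.8% in sgCPT1A and 41.3% in sgVC. NK-like and tumour-like cells are shown for sgVC alone.

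Interferon ligand genes differed in direction between the classes, and their link to the module was not tested. Ifnb1, the interferon beta gene, stood at 32.5 CPM (70 UMIs) in sgCPT1A and 308 CPM (2892 UMIs) in sgVC monocyte/macrophage-like cells (−3.24, −3.61 to −2.90), and 6.42% of sgCPT1A and 22.8% of sgVC cells had a UMI. In dendritic-like cells it stood at 75.4 CPM in sgCPT1A and 188 in sgVC (−1.32, −1.69 to −0.96), in fibroblast-like cells at 0.0807 CPM in sgCPT1A and 34.5 in sgVC and in neutrophil-like cells at 1.90 CPM in sgCPT1A and 3.94 in sgVC. Of 21 interferon ligand genes, 5 had enough UMIs in monocyte/macrophage-like cells and all 5 were lower in sgCPT1A there, Ifna2 with 2 UMIs in sgCPT1A and 202 in sgVC. Of all genes in that class 25.1% were lower. In dendritic-like cells 1 of 3 ligand genes was higher (18.2% of all genes) and 2 were lower (18.8%). In fibroblast-like cells 1 of 2 was higher (16.0%) and 1 lower (13.5%). Ifng, the type II ligand, was level in T-like cells, at 695 CPM in sgCPT1A and 775 in sgVC (−0.16, −0.24 to −0.07). In T-like cells 3 of 4 ligand genes were higher in sgCPT1A, beside 13.3% of all genes, and all 29 sgCPT1A Ifnb1 UMIs came from 1 cell.

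Of 10 receptor and JAK-STAT genes, 2 were higher and 1 lower in neutrophil-like cells (median log2 ratio 0.20). Of all genes there 17.4% were higher and 36.2% lower. Irf1, a transcription factor of both interferon types, had the highest CPM of the list, at 1783 CPM in sgCPT1A and 1423 CPM in sgVC (0.33, 0.28 to 0.37), and Jak1, the kinase shared by both receptors, stood at 350 CPM in sgCPT1A and 362 in sgVC. The largest ratios were those of Ifngr1, a chain of the gamma receptor, at 39.5 CPM in sgCPT1A and 101 in sgVC (−1.36, −1.57 to −1.15), and of the kinase Tyk2, at 14.8 CPM in sgCPT1A and 8.23 in sgVC (0.84, 0.22 to 1.53). Ifnar2, a chain of the type I receptor, was picked for its role after its values were seen, and stood at 316 CPM in sgCPT1A and 198 in sgVC (0.67, 0.55 to 0.80).

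Of 13 genes of sensing upstream of interferon, 9 had enough UMIs in neutrophil-like cells, where 4 were higher and 1 lower (0.55). The shares of all genes there were 17.4% higher and 36.2% lower. The kinase Ikbke had the largest ratio, at 137 CPM in sgCPT1A and 35.8 CPM in sgVC (1.93, 1.64 to 2.24), followed by the DNA sensor Cgas at 15.5 CPM in sgCPT1A and 9.31 in sgVC. The highest CPM were those of the kinase Tbk1, at 174 CPM in sgCPT1A and 122 in sgVC, and of the adaptor Myd88, at 159 CPM in sgCPT1A and 135 in sgVC. Of 8 brakes on the response, 7 had enough UMIs, with 1 higher and 2 lower (0.24), close to the same shares of all genes. Socs3 (853 CPM in sgCPT1A and 724 in sgVC) and Samhd1 (688 CPM in sgCPT1A and 630 in sgVC) had the highest CPM, and Nlrx1 (39 UMIs in sgCPT1A and 21 in sgVC; −1.40, −2.20 to −0.56) and the phosphatase Ptpn6 (83.0 CPM in sgCPT1A and 151 in sgVC; −0.87, −1.03 to −0.70) had the largest ratios.

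A wider list of 62 other type I-responsive genes was also higher in sgCPT1A on balance in neutrophil-like and monocyte/macrophage-like cells. In neutrophil-like cells 28 of 55 were higher and 5 lower (median log2 ratio 0.59), in monocyte/macrophage-like cells 34 of 58 were higher and 3 lower (0.74), and in fibroblast-like cells 10 of 52 were higher and 7 lower (0.14). Of all genes 17.4% were higher and 36.2% lower in neutrophil-like cells. The shares were 15.1% and 25.1% in monocyte/macrophage-like and 16.0% and 13.5% in fibroblast-like cells. Slfn4, of the Schlafen family, was at 2717 CPM in sgCPT1A and 1115 CPM in sgVC neutrophil-like cells (1.29, 1.23 to 1.34). Ifitm1, a relative of Ifitm3, lay far the other way, at 934 CPM in sgCPT1A and 4142 in sgVC (−2.15, −2.19 to −2.11), and Trim30d had 58 UMIs in sgCPT1A and 3 in sgVC (1.98, 0.36 to 4.30). Among 24 genes that lean to interferon gamma, 12 of 21 were lower and 1 higher in fibroblast-like cells (median −0.74), while 7 of 22 were higher and 2 lower in neutrophil-like cells (0.49), with the chemokines Cxcl11 (265 CPM in sgCPT1A and 56.6 in sgVC; 2.23) and Cxcl9 (114 CPM in sgCPT1A and 25.4 in sgVC) at the largest ratios and Cd274 (2523 CPM in sgCPT1A and 1772 in sgVC) and Gbp2 (978 CPM in sgCPT1A and 702 in sgVC) at the highest levels. The shares of all genes given above hold for these counts too. In fibroblast-like cells the median of the 38 members was 0.01. The difference between the lists was not tested.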

How the data were processed

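The deposited files give UMI counts, as whole numbers, for each gene and cell barcode of 1 sgCPT1A and 1 sgVC library. The authors made these counts with Cell Ranger 7.1.0, per the file headers; the submitters' processing notes name GRCm38 and Seurat 4.1.0. The annotation release and how cells were called are not given in the sources used here. GENCODE M21, which held 52081 of the 55357 gene identifiers, gave coordinates, overlaps and biotypes; promoters came from RefSeq (GRCm38.p6).

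Barcodes under 200 genes or over 20% mitochondrial UMIs were dropped (455 sgCPT1A and 280 sgVC). Scrublet called 0 sgCPT1A and 287 sgVC doublets; those of sgVC were left out. Both libraries were clustered jointly, with no integration and without interferon genes, rRNA, Malat1 and Xist (10000 UMIs per cell, log1p, 2000 variable genes, 30 components, 15 neighbours, Leiden resolution 1). A cluster was named where at least 3 markers of 1 of 17 sets were 2-fold over the median cluster and in 10% of its cells. UMIs were summed per class and library and scaled to CPM. Levels have exact Poisson, ratios exact conditional binomial and shares exact Clopper-Pearson 95% intervals. A count of 0 was limited at 3 counts. Only the ratio intervals and calls were run on simulated data. These were independent Poisson counts, the model behind the interval, so the run could not check for UMIs gathered in single cells. No p-value was computed, as each group had 1 library.

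The members, gene lists, markers and most alternatives were chosen with earlier results of these data known. All members are named; of each pathway list, the top 2 genes by level and the top 2 by ratio are named, among those with 50 UMIs or more in neutrophil-like cells, and so are interferon ligands. Alternatives covered filters, doublets, clustering, own-marker classes, cell weighting, scaling, free RNA, thresholds, thinning and sub-cluster mix. Software: Python 3.11.15, numpy 2.4.6, pandas 2.3.3, matplotlib 3.10.9, scipy 1.17.1, scikit-learn 1.9.0, igraph 0.11.9, leidenalg 0.10.2, anndata 0.12.19 and scanpy 1.11.5.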

Additional observations from a re-analysis of the deposited data

Results flagged for a closer look

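For 7 members the libraries differed in opposite directions in different classes, with both intervals excluding 0. None of these differences was tested. The share of all genes with such opposite directions was not computed, so the count is a description only. Rsad2 had a log2 ratio of sgCPT1A over sgVC of 2.69 in T-like and −0.84 in fibroblast-like cells, which is 3.53 apart; in T-like cells 1 cell held 19.2% of the sgCPT1A UMIs of Rsad2, and with free RNA subtracted the T-like ratio was 1.23. Ifit1 had 1.70 in neutrophil-like and −1.59 in fibroblast-like cells, 3.29 apart, and Ifit2 had 1.55 and −0.99 in the same classes, 2.54 apart. In fibroblast-like cells 1 cell held 34.4% of the sgVC UMIs of Ifit2, and without the top cell of each library its ratio was −0.45. That ratio is below the 1.5-fold limit. Oasl1 had 1.14 in neutrophil-like and −1.12 in fibroblast-like cells, 2.26 apart, and Ifih1 had 1.29 and −0.66, 1.95 apart. Zbp1 had 0.97 in monocyte/macrophage-like and −0.73 in fibroblast-like cells, 1.70 apart. Ifi35 had 0.64 in monocyte/macrophage-like and −0.61 in dendritic-like cells, 1.25 apart. With cells classed by their own markers, the fibroblast-like ratio of Rsad2 was 0.16 and the dendritic-like ratio of Ifi35 was 0.07.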

How the results depend on the processing

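Of 230 recomputed counts, medians and shares, 199 kept their direction and stayed within 1.5 times a count or within the interval of a value. For a median this interval ran between the medians of the members' lower and upper bounds, and is not a 95% interval of the median. It was wide, at 0.02 to 1.22 in dendritic-like and 0.02 to 1.23 in pericyte-like cells. Of 2536 recomputed member ratios 2229 kept their direction and stayed within their counting interval, 300 moved and 7 turned. The causes were not tested. Counting 2-fold differences, 18 monocyte/macrophage-like, 8 dendritic-like, 8 T-like, 2 fibroblast-like and 4 pericyte-like members were higher in sgCPT1A. Some alternatives changed the number of members counted, and no share of all genes was computed under any of them. Over those members whose level in the class was 25% or more of their top class, 9 of 22 were higher in dendritic-like cells. The counts were 9 of 16 in T-like, 2 of 13 in fibroblast-like and 9 of 17 in pericyte-like cells. With cells classed by their own markers the counts were 30 of 35 dendritic-like, 10 of 35 fibroblast-like and 28 of 32 pericyte-like members (median 1.75). Under that classing 1 sgCPT1A member was restricted, and Ifi204 (−0.01) and Ifi35 (0.07) in dendritic-like and Rsad2 (0.16) in fibroblast-like cells turned. With the sgVC mix of neutrophil sub-clusters the neutrophil-like count was 15, the median 0.56 and Xaf1 −0.03; scaled to the median gene, the median was 1.29. With free RNA subtracted the T-like count was 11, the median 0.34 and Oas2 −0.03. With each cell weighted equally, pericyte-like Irf7 (−0.33) and Stat2 (−0.50) turned. Restricted members numbered 19 in sgCPT1A and 18 in sgVC with a second class under 50% of the first, and 0 in sgCPT1A and 0 in sgVC under 10%. Shares of cells with 5 member UMIs, thinned to 2000 UMIs, were 96.2% in sgCPT1A and 92.3% in sgVC neutrophil-like cells and 86.3% in sgCPT1A and 85.0% in sgVC monocyte/macrophage-like cells, and not thinned 94.7% in sgCPT1A and 80.1% in sgVC, and 87.2% in sgCPT1A and 89.4% in sgVC, where depth differs between the libraries. The alternatives of leaving out cells with over 1% S100a8 and S100a9 UMIs and of leaving out each member's top cell were added after the data were seen. No paired analysis was possible because each group had 1 library, and for the same reason no replicate could be left out. Differences in the host, the dissection or the capture cannot be told apart from the group.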

Other observations

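Tumour-like cells were too few in sgCPT1A for a comparison of classes, and their levels are given as values. An Epcam-positive cluster held 30 sgCPT1A and 13 sgVC cells, where the module summed to 2789 CPM (2662 to 2920.4) in sgCPT1A and 1899 CPM (1702 to 2112) in sgVC. The other 4 tumour-like clusters held 10 sgCPT1A and 4460 sgVC cells, at 6125 CPM (5683 to 6592) in sgCPT1A and 2634 CPM (2625 to 2644) in sgVC. Without Ifitm3 the sums in these 4 clusters were 2813 CPM in sgCPT1A and 1081 CPM in sgVC. The 10 sgCPT1A cells had a median of 2300.5 UMIs, against 23631 in the sgVC cells, and whether free RNA of neutrophils contributed to them was not tested.

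In sgVC, Zbp1 stood at 115 CPM in tumour-like cells, Ifi204 at 183 CPM and Phf11d at 39.7 CPM, whereas Isg15 was at 99.9 CPM and Rsad2 at 12.6 CPM. NK-like cells of sgVC held at least 5 member UMIs in 17.1% of cells (9.66 to 27.0%) after thinning, or 15.9% without Ifitm3. Tumour-like cells of sgVC did in 16.7% (15.6 to 17.8%), or 3.39% without Ifitm3.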
